A study of Mus musculus with 4 samples.

Results

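Interferon-stimulated genes are the genes that cells switch on after sensing interferon. The set described here is a list of 37 such genes, chosen by name and looked up as columns of a single-cell expression table; 36 of them are among its 12763 genes, and Mx1 is the 1 that is not. The cells are CD8 T cells from spleen and from a subcutaneous B16K1 melanoma, taken 21 days after tumour inoculation. They came from mixed bone marrow chimaeras, which are irradiated C57BL/6 mice rebuilt with marrow of 2 donors. Cells of 7 mice were tagged and pooled into 4 suspensions, and each gave 1 droplet library of 5' transcript ends.

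In both tissues, the CD137 minus library derives from Cd4cre Cd137fl/fl ROSA26tomato marrow, in which the Cre recombinase driven by Cd4 regulatory sequence removes CD137, a costimulatory receptor encoded by Tnfrsf9, from T cells. The CD137 plus library derives from Cd137fl/fl ROSA26tomato marrow, in which the labels name no Cre. The floxed allele and the tomato reporter allele are thus named for both donors, and the presence of Cre and any other difference between the donors cannot be told apart from the loss of CD137. The labels differ on which sorted fraction was tomato positive, so the groups rest on CD137 status alone. No mouse is named per cell, each group is 1 library, and the differences below have no replicate check and no test. In a pool, a level per library cannot tell a change in every cell from a change in the mix of cells.

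The spleen CD137 minus and plus libraries held 2464 and 473 cells, and the tumour CD137 minus and plus libraries 1262 and 2766 cells. Totals per cell lay between 2949 and 5872 corrected counts, with library medians from 3701.5 to 5344. Tnfrsf9 stood at 2.34 and 16.2 counts per 1000000 counts of the library (CPM) in spleen minus and plus, and at 57.5 and 421 CPM in tumour minus and plus. The labels do not say which part of the gene is deleted. Cd3e and Cd8b1 had a value in at least 97.6% of the cells of every library. In all, 19 barcodes, held by 38 cells, stood in more than 1 library, and none of the 120 values recomputed without those cells moved beyond its counting interval. Cells with a Cd8a or Cd8b1 value and no value of Cd79a, Lyz2, C1qa, Mlana, Pmel or Siglech made up 98.5% and 99.2% of the spleen libraries and 95.3% and 93.2% of the tumour libraries.

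Type I interferons bind the receptor chains Ifnar1 and Ifnar2, and the kinases Jak1 and Tyk2 then activate a complex that includes Stat2 and Irf9 and binds a promoter element called the interferon-stimulated response element (ISRE). Interferon gamma, which activated CD8 T cells secrete, binds Ifngr1 and Ifngr2, and its signal acts on a promoter element called the gamma-activated site (GAS). Many genes answer to both, but antiviral effectors such as the Ifit genes, Rsad2 and Isg15 are best known as type I targets, whereas the immunity-related GTPases and guanylate-binding proteins are strongly induced by interferon gamma. The members were therefore split into the Ifit, Oas, Rsad2 and Isg type (the Ifit type; 12 of 13 listed genes in the table) and the Gbp, Igtp, Irgm1 and Iigp1 type (the GTPase type; 7 genes). The others are 4 Schlafen genes, 3 genes of the Ifi200 family and 10 further genes.

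Promoters of the 3 members of each type with the highest mean level (a molecule is counted once, at its 5' end, and levels are not divided by length), among those that were measured in all 4 comparisons and have an entry in RefSeq's table, are shown because interferon signals are read at promoter elements. Usp18, which lies between Isg20 and Herc6 in level, has no entry. The split into types was made by gene name and not by these sequences. The sequences are RefSeq's, from GRCm38.p6, and run 5' to 3' on the strand of the gene over the 250 bases before its start. Capitals mark matches on either strand to the ISRE core (GAAA, any 2 bases, GAAA) or to the GAS core (TTC, any 3 bases, GAA). A match is a run of letters and not a site shown to be bound.
Isg15, chr4:156200819-156201068, minus strand: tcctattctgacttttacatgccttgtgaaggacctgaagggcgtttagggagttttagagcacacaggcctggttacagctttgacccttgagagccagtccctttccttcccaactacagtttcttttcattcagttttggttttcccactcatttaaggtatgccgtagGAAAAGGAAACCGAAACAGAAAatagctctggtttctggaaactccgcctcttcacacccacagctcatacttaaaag
Isg20, chr7:78913174-78913423, plus strand: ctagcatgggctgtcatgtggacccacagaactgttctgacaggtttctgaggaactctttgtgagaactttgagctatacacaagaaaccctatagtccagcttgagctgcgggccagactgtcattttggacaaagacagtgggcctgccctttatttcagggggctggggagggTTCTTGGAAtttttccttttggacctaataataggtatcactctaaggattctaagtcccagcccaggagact
Herc6, chr6:57580742-57580991, plus strand: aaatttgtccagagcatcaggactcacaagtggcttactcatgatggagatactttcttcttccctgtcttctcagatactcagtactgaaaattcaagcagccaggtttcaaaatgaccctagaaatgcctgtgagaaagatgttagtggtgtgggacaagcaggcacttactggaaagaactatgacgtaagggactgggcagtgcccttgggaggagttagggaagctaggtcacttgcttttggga
Ifi47, chr11:49076337-49076586, plus strand: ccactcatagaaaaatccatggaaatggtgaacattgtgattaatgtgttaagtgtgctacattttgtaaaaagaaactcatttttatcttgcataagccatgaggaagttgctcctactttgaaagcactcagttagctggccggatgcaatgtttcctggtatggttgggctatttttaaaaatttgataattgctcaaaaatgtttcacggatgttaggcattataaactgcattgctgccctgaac
Igtp, chr11:58199306-58199555, plus strand: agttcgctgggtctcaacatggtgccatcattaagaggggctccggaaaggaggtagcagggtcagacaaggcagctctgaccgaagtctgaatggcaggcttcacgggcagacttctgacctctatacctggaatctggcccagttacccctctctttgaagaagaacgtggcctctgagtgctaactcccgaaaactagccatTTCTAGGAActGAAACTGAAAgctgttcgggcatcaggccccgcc
Gbp7, chr3:142530086-142530335, plus strand: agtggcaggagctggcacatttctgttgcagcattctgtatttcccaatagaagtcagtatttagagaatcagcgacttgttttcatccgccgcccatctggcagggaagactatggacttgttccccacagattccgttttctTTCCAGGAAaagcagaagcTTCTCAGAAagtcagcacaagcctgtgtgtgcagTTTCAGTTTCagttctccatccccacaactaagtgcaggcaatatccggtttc

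Isg15 held 3 overlapping ISRE matches that began 78, 72 and 66 bases before the start, printed as 1 stretch of capitals. Isg20 held a GAS match and no ISRE match. It has 3 entries, and the entry with the most matches is the sequence shown, so its match is partly a result of that choice. Igtp held both, with a GAS match that began 45 bases and an ISRE match that began 34 bases before the start, and Gbp7 held 2 GAS matches and 1 ISRE match on the opposite strand. Herc6 and Ifi47 held neither in this window, which says only that these letters are not there. The RefSeq table matched 30 of the 36 members by symbol; the other 6 are Usp18, Rtp4, Zbp1, Ifi27l2a, Iigp1 and Parp14. In windows from 250 bases before to 50 after the start, 18 of the 30 (60%) had an ISRE match, against 3.99% of 27025 genes. By type these were 6 of 11 Ifit type and 5 of 6 GTPase type genes. A GAS match stood in 5 of the 30 members, against 9.55% of all genes, and 2 of the 5 were GTPase genes (Igtp and Gbp7) and 1 was of the Ifit type (Isg20).

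Ifit3 and Ifit3b are neighbours on chromosome 19 with transcripts that are 97.8% identical over 1700 bases. Their promoters carry the same ISRE stretch, shown with the match in capitals, so neither the transcripts nor these promoters separate them well, and the split of counts between them is uncertain.
Ifit3, chr19:34583363-34583392, plus strand: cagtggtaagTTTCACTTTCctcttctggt
Ifit3b, chr19:34607759-34607788, plus strand: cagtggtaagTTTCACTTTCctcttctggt

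Counts of some other members could also be shared with a near copy or an overlapping gene. Ifi203 with Mndal, Ifi206 with Ifi208 and Ifi213, Ifi209 with Ifi214, Slfn8 with Slfn9, Slfn2 with Slfn3 and Slfn4, Trim30a with Trim30d and Ifi27l2a with Ifi27l2b are at least 90% identical over 200 or more bases. Stretches of Slfn5, Xaf1 and Dtx3l also match unrelated genes at that identity. Exons of Igtp overlap Irgm2 and exons of Ifi47 overlap Olfr56 on the same strand in the GRCm38 annotation. In that build the gene of Isg15 lies at chr4:156199424-156200818 on the minus strand and that of Isg20 at chr7:78913424-78920396 on the plus strand, each next to the promoter shown. Slfn1 lies at chr11:83116849-83122670 (plus strand) and Ifi27l2a at chr12:103442167-103443680 (minus strand).

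Levels are corrected counts summed over the cells of a library and scaled to 1000000 per library. Only genes that reached 20 CPM and 5% of cells in either library compared, and were not at 0 in the other, were taken as measured. By that rule 29 members had enough counts in at least 1 library, and 21 were measured in all 4 comparisons. A difference is the log2 ratio of CPM after adding 1 CPM, and a gene is called higher or lower when that ratio is at least 0.5 in size. Intervals are exact 95% intervals of the counts (Poisson for a level, binomial for a ratio or share). They cover counting error only, and since the counts had been corrected for depth by the authors, they may be too narrow or too wide.

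**Figure D1:**
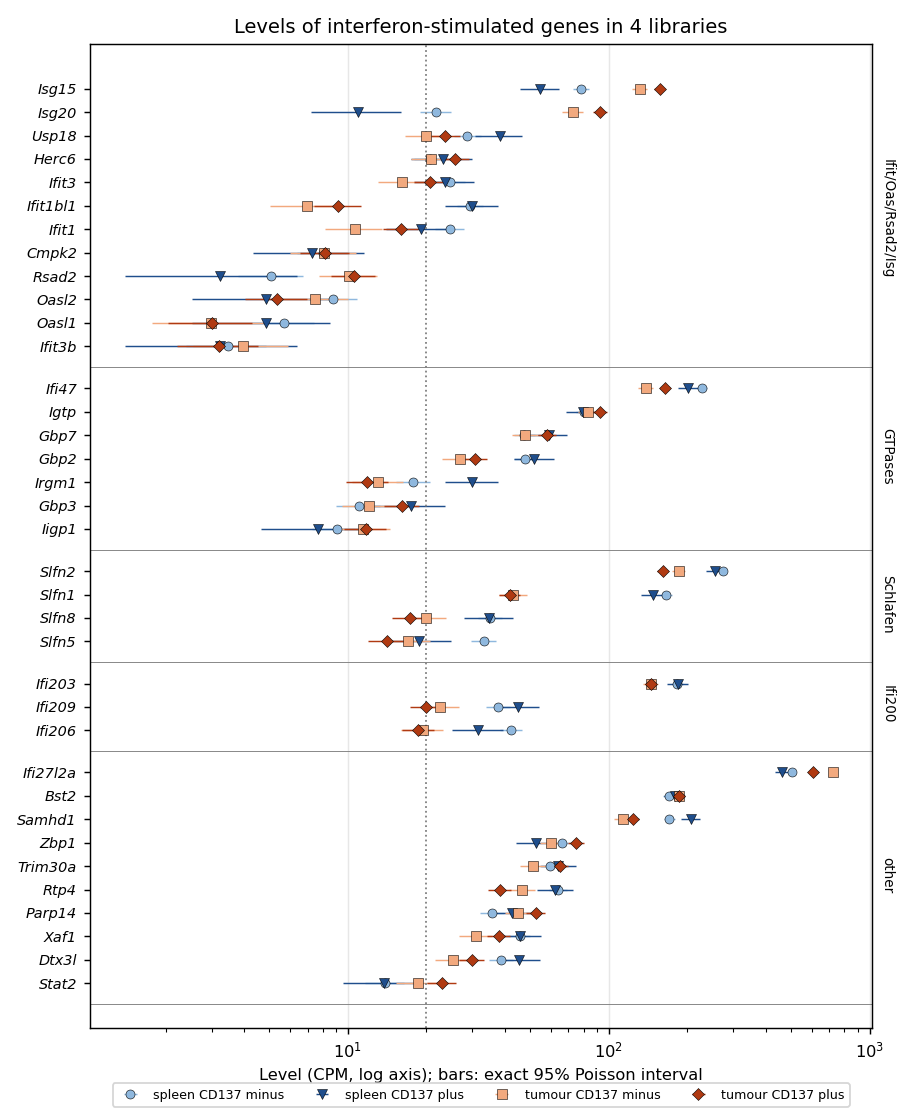
Level of each of the 36 members in the 4 libraries, in CPM on a log axis, grouped by type. Each symbol is 1 library, horizontal bars are exact 95% Poisson intervals, and the dotted line marks 20 CPM. Isg15 and Isg20 lie to the right in both tumour libraries, and Slfn1 lies to the right in both spleen libraries.

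Within the Ifit type, Isg15 encodes a ubiquitin-like protein that is attached to other proteins. It stood at 78.2 and 54.3 CPM in spleen minus and plus and at 131 and 157 CPM in tumour minus and plus. Isg20, an exonuclease that degrades RNA, stood at 21.8 and 10.9 CPM in spleen and at 72.7 and 92.6 CPM in tumour, again in the order minus and plus, which all lists of 4 levels below follow. For both genes the tumour libraries were above the spleen libraries with intervals that do not overlap. A value of Isg15 was found in 16.8% and 15.6% of spleen cells and in 26.9% and 27.2% of tumour cells. Thinned to 2900 corrected counts a cell, these shares were 13.1%, 11.0%, 18.9% and 23.4%. No cell class in the table is known to lack these genes, so no background share from free RNA could be set beside them.

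The Ifit genes themselves, which bind foreign RNA, did not share that order. Ifit1 stood at 24.6, 19.1, 10.6 and 16.0 CPM. Ifit1bl1, an Ifit1-like gene, stood at 29.4, 30.001, 6.96 and 9.15 CPM, so both spleen libraries were above both tumour libraries. Ifit3 stood at 24.7, 23.5, 16.1 and 20.6 CPM. Its tumour CD137 plus level overlaps both spleen levels within the intervals. Usp18, which removes Isg15 from proteins and dampens signalling from Ifnar2, stood at 28.7, 38.1, 19.9 and 23.7 CPM, and Herc6, the mouse ligase that attaches Isg15, at 20.7, 23.1, 20.9 and 25.8 CPM. The remaining Ifit type genes, Ifit3b, Rsad2, Oasl1, Oasl2 and Cmpk2, stayed between 2.98 and 10.5 CPM and had a value in at most 2.92% of the cells of any library.

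The GTPase type holds proteins that attack the membranes of vacuoles in which microbes live. Ifi47 stood at 227, 201, 138 and 164 CPM, with both spleen libraries above both tumour libraries. Igtp stood at 80.2, 79.5, 83.5 and 92.2 CPM, with neighbouring intervals that overlap. The guanylate-binding protein genes differed from each other: Gbp2 stood at 47.6, 51.9, 27.0 and 30.6 CPM, and Gbp7 at 47.5, 58.8, 47.9 and 58.1 CPM. Irgm1 stood at 17.8, 30.001, 13.1 and 11.9 CPM, and spleen CD137 plus was above the other 3 libraries. Iigp1 and Gbp3 were below the level rule in every library, at 7.70 to 17.4 CPM.

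Among the Schlafen genes, Slfn1 stood at 166, 148, 43.1 and 41.7 CPM, and a value was found in 44.5% and 48.6% of spleen cells and 15.9% and 12.7% of tumour cells. Slfn2, which T cells need to stay quiescent, stood at 273, 255, 185 and 161 CPM. Both genes were higher in each spleen library than in each tumour library. Slfn5 stood at 33.2, 18.6, 17.1 and 14.1 CPM, where spleen CD137 minus was above the other 3, and Slfn8 at 35.0, 34.9, 19.9 and 17.2 CPM. The Ifi200 genes encode proteins that bind DNA through HIN domains. Ifi203 stood at 183, 184, 145 and 145 CPM, Ifi206 at 42.3, 31.6, 19.4 and 18.6 CPM and Ifi209 at 37.6, 45.0, 22.5 and 19.95 CPM, so that all 3 were higher in each spleen library than in each tumour library.

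The other 10 members fell into no single order. Samhd1, which breaks down the nucleotides that DNA synthesis needs, stood at 170.4, 206, 113 and 124 CPM, with both spleen libraries on top. Dtx3l, a ubiquitin ligase, stood at 38.7, 45.4, 25.3 and 29.8 CPM, Rtp4 at 64.1, 62.4, 46.5 and 38.3 CPM and Xaf1, a gene that promotes cell death, at 45.6, 45.8, 31.0 and 37.9 CPM, also with the spleen libraries on top. Ifi27l2a, which encodes a small membrane protein, had the tumour libraries on top, at 503, 461, 727 and 608 CPM. So did Parp14, a mono-ADP-ribosyltransferase, at 35.7, 42.6, 45.1 and 52.4 CPM, and Stat2, the signal carrier of type I interferon, at 13.8, 13.8, 18.6 and 22.9 CPM. For Xaf1, Parp14 and Stat2, however, some intervals of the 2 tissues overlap. Those of Stat2 were 9.55 to 19.3 CPM in spleen CD137 plus and 15.3 to 22.3 CPM in tumour CD137 minus. Bst2 encodes tetherin, which holds budding virus at the cell surface, and stood at 169.6, 179, 185 and 186.5 CPM. Trim30a stood at 59.6, 64.1, 51.3 and 64.8 CPM, and Zbp1, a sensor of Z-form nucleic acids, at 66.3, 52.7, 60.3 and 75.0 CPM. For these last 3 genes the ranges of the 2 tissues overlapped or nearly met.

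The comparison of tumour with spleen asks how the interferon-stimulated genes of tumour-infiltrating CD8 T cells differ from those of splenic ones. The members did not move as 1 block. Among CD137 plus cells, 3 of 27 measured members were higher in tumour and 12 were lower, against 24.2% and 17.5% of 5710 measured genes. Their median log2 ratio was -0.29, against 0.07 over all measured genes. Among CD137 minus cells, 3 of 27 were higher and 15 lower, against 22% and 14.5% of 5412 genes, with a median of -0.54 against 0.03. These 2 comparisons share no library, but both draw on the same pooled mice, and each library also enters 1 comparison of CD137 status.

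Within the Ifit type, tumour over spleen was 1.51 (1.28 to 1.80) for Isg15 and 2.97 (2.53 to 3.69) for Isg20 in CD137 plus cells. In CD137 minus cells it was 0.74 (0.60 to 0.89) for Isg15 and 1.69 (1.501 to 1.98) for Isg20. Ifit1bl1 was lower in tumour in both, at -1.61 (-2.17 to -1.25) and -1.93 (-2.58 to -1.61), and so was Usp18, at -0.67 and -0.51. Ifit1 (-1.14) and Ifit3 (-0.59) were called lower in CD137 minus cells. Without the 2% of cells highest for the Ifit type, Ifit1, Ifit3 and Usp18 were no longer called there. The Usp18 call in CD137 minus cells was also lost among cells that pass the CD8 rule and with a pseudocount of 10 CPM. In CD137 plus cells Ifit3 was at -0.18, and Ifit1, at -0.24, was not measured by the level rule. Herc6 was at 0.15 and 0.01. Rsad2 was under the level rule, at 1.44 (0.67 to 2.94) from 10.5 against 3.24 CPM in CD137 plus cells, and at 0.87 (0.43 to 1.56) from 10.1 against 5.09 CPM in CD137 minus cells. So among the measured genes of the type, Isg15 and Isg20 were higher in tumour, while Herc6, Usp18 and the Ifit genes lay within the threshold or were lower.

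The sum of the 12 Ifit type genes was 375 CPM in tumour and 223 CPM in spleen among CD137 plus cells, a log2 ratio of 0.75 (0.62 to 0.88). Among CD137 minus cells it was 311 against 259 CPM, at 0.26 (0.18 to 0.35). Without Isg15 these ratios were 0.37 and -0.01. Without both Isg15 and Isg20, a sum chosen after the data had been seen, they were -0.33 (-0.49 to -0.16), from 125 against 157 CPM, and -0.57 (-0.71 to -0.44), from 107 against 159 CPM. The sum of the 7 GTPase type genes was 385 against 446 CPM in CD137 plus cells (-0.21; -0.31 to -0.12) and 333 against 441 CPM in CD137 minus cells (-0.40; -0.48 to -0.33). In CD137 plus cells the sums of the 2 types still had opposite signs without Isg15, at 0.37 against -0.21. In CD137 minus cells the Ifit type sum without Isg15 was -0.01, against -0.40. Without both Isg15 and Isg20, the sum of the other 10 Ifit type genes had the sign of the GTPase sum in both comparisons. Without Ifi47, the GTPase ratio in CD137 minus cells was -0.13.

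No measured GTPase gene was called higher in tumour. Gbp2 was lower in both comparisons, at -0.74 (-1.06 to -0.46) and -0.80 (-1.08 to -0.56). Irgm1 was lower in CD137 plus cells, at -1.27 (-1.77 to -0.90), and Ifi47 in CD137 minus cells, at -0.71 (-0.83 to -0.60). Igtp was at 0.21 and 0.06, and Gbp7 at -0.02 and 0.01, with intervals that include 0. Below the level rule, Iigp1 was at 0.54 (-0.10 to 1.38) in CD137 plus and 0.31 (-0.14 to 0.81) in CD137 minus cells. Gbp3, also below it, was at -0.11 and 0.13, with intervals that include 0. Irgm1 was below it in CD137 minus cells, at -0.42 (-0.85 to -0.05).

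The Schlafen genes that were measured were lower in tumour. All 3 that were measured in CD137 plus cells and all 4 in CD137 minus cells passed the threshold, with Slfn1 at -1.80 (-2.03 to -1.62) and -1.92 (-2.14 to -1.76). Slfn2 was at -0.66 and -0.56, Slfn8 at -0.98 and -0.79, and Slfn5 at -0.92 in CD137 minus cells. In CD137 plus cells Slfn5 was under the level rule, at -0.38 (-0.89 to 0.11). Of the Ifi200 genes, Ifi206 and Ifi209 were lower in both comparisons and Ifi203 stayed within the threshold at -0.35 and -0.34. Samhd1 and Dtx3l were lower in both, Rtp4 in CD137 plus cells (-0.69) and Xaf1 in CD137 minus cells (-0.54). Without the 2% of cells highest for the Ifit type, Xaf1 was no longer called in CD137 minus cells and Rtp4 was called lower there. Stat2 was higher in CD137 plus cells, at 0.69 (0.21 to 1.29) from 22.9 against 13.8 CPM, and Ifi27l2a in CD137 minus cells, at 0.53 (0.47 to 0.59). The call of Ifi27l2a was lost relative to the median of all genes, where it was 0.50 by rounding and just under the threshold. Zbp1 was just under the threshold in CD137 plus cells, from 75.0 against 52.7 CPM.

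**Figure D2:**
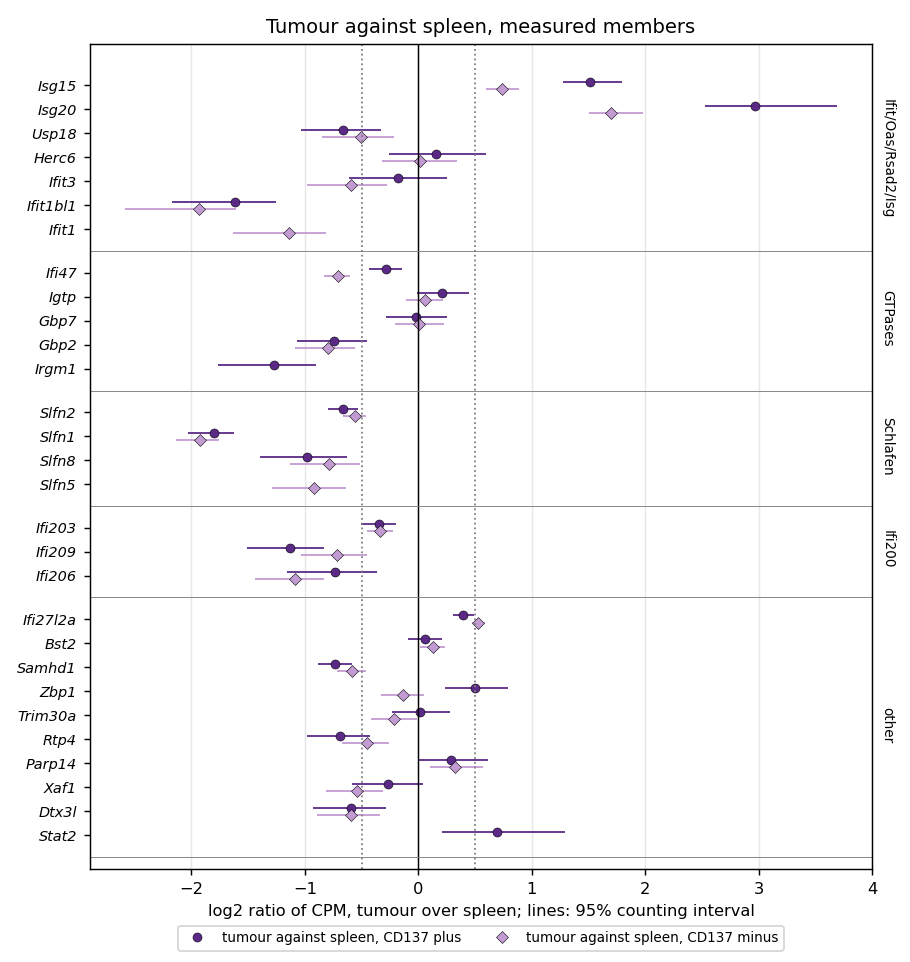
Log2 ratio of CPM in tumour over spleen for each measured member, in CD137 plus cells (circles) and CD137 minus cells (diamonds), grouped by type. Lines are 95% counting intervals and dotted lines mark 0.5 in either direction. Isg15 and Isg20 lie to the right, and Slfn1 and Ifit1bl1 lie furthest to the left.

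Tumour and spleen held different mixes of cells, so levels were also taken in cells set apart by another gene. Cells with a value of Pdcd1, which encodes the inhibitory receptor PD-1, made up 40.7% of the CD137 minus and 55.2% of the CD137 plus cells of the tumour. The spleen libraries had only 33 and 12 such cells, which were not used. The other cells are called Pdcd1-free here, a set of 2431, 461, 748 and 1239 cells that was formed after the data had been seen. A cut on 1 gene is a range of cells and not a cell type, and a cell that has the transcript can lack a value for it.

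Among Pdcd1-free cells, by the level rule applied in these cells, 4 of 27 measured members were higher in tumour and 8 lower in CD137 plus cells, against 14.2% and 23.5% of 5387 genes. In CD137 minus cells 1 of 27 was higher and 14 lower, against 12.1% and 21% of 5082 genes. Slfn1 kept most of its difference between tissues, at -1.47 (-1.74 to -1.25) in CD137 plus and -1.79 (-2.05 to -1.58) in CD137 minus cells. Isg20 was at 2.501 (2.03 to 3.23) and 1.10 (0.84 to 1.44). Isg15 was at 1.498 (1.24 to 1.80) in CD137 plus cells, from 154 against 54.0 CPM, and at 0.29 (0.10 to 0.48) in CD137 minus cells, from 92.8 against 76.0 CPM. So Isg20 stayed past the threshold in both and Isg15 in CD137 plus cells. Ifi27l2a was at -0.06 (-0.17 to 0.05) and 0.06 (-0.02 to 0.14), so its call in CD137 minus cells was not met there. The Ifit type sum was at 0.72 (0.58 to 0.87) in CD137 plus and -0.04 (-0.15 to 0.07) in CD137 minus cells, and the GTPase type sum at -0.21 and -0.44. The difference between CD137 plus and minus cells in these values was not tested.

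Inside the tumour, Pdcd1 cells and Pdcd1-free cells stood apart for some of the same genes. In tumour CD137 minus cells, Ifi27l2a was at 1037.5 CPM in Pdcd1 cells and 511 CPM in Pdcd1-free cells, and in CD137 plus cells at 748 and 431 CPM. Isg20 was at 109 against 47.4 CPM and at 112 against 68.1 CPM. Both genes were thus higher in Pdcd1 cells whatever the CD137 status. Isg15 was at 186 against 92.8 CPM in CD137 minus cells but at 159 against 154 CPM in CD137 plus cells. Parp14 was at 68.0 against 29.2 CPM and at 64.5 against 37.1 CPM. Slfn1 was at 37.2 against 47.1 CPM and at 33.5 against 51.9 CPM, the opposite order, and Bst2 was also lower in Pdcd1 cells, at 140.0 against 217 CPM and 141 against 243 CPM. Cells with a value of Siglech, a plasmacytoid dendritic cell marker, were not left out here. They held 17.98% and 18.01% of the Bst2 counts of tumour CD137 minus and plus. Their part in the Bst2 difference was not tested.

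**Figure D3:**
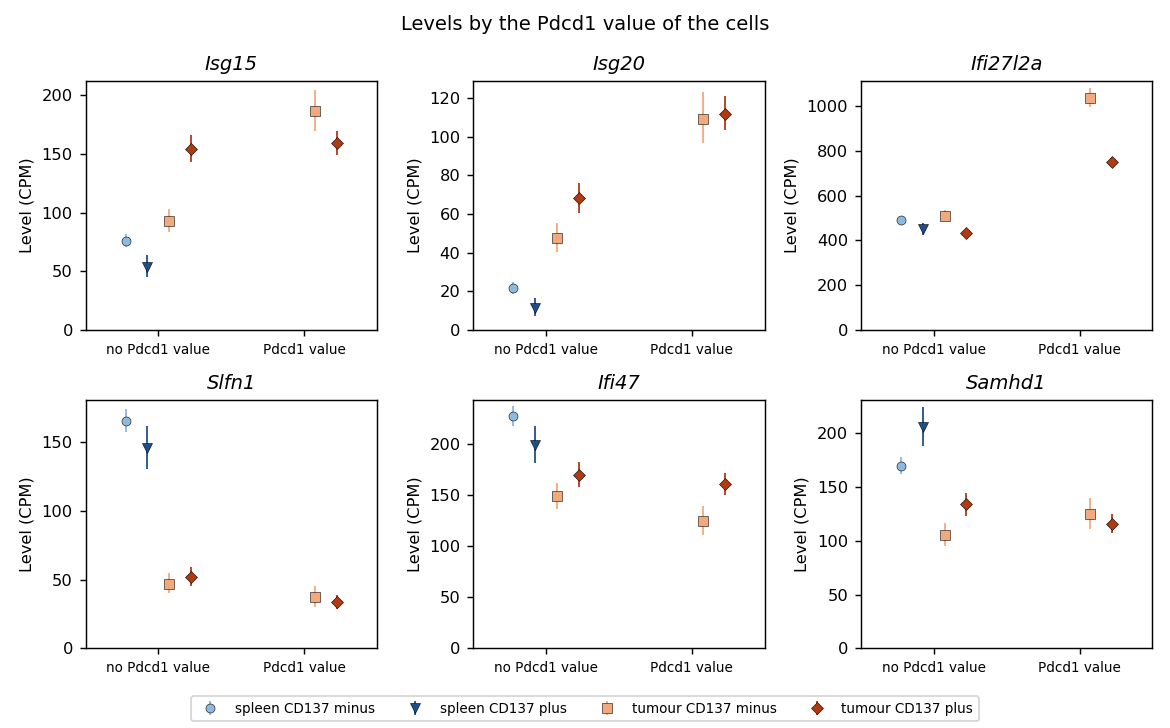
Level in CPM of 6 members in cells without and with a Pdcd1 value, for each library. Bars are exact 95% Poisson intervals, and spleen cells with a Pdcd1 value are left out because they number under 50. Isg20 and Ifi27l2a are highest in tumour cells with a Pdcd1 value, while Slfn1 is lower in both kinds of tumour cells than in spleen cells.

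The comparison of CD137 minus with CD137 plus asks whether CD8 T cells of these donors, within the same mice, differ in their interferon-stimulated genes. The groups are set by donor and not by whether a cell had a Tnfrsf9 value. Such a value was found in 0.85% and 4.23% of spleen minus and plus cells, and in 15.8% and 45.3% of tumour minus and plus cells. A value in CD137 minus cells does not show that the receptor was made, as the deleted part of the gene is not named. In tumour, 0 of 22 measured members were called, against 7.14% of 5353 measured genes (1.7% higher and 5.44% lower, or 3.68% higher and 2.3% lower relative to the median of all genes). The largest differences were -0.34 for Isg20 and 0.28 for Rtp4, and 16 of the 22 were below 0. The median of the members was -0.22, or -0.09 relative to the median of all genes, which was -0.13. All 4 measured Ifit type genes and all 4 measured GTPase type genes were below 0, by 0.14 to 0.34. Both measured Schlafen genes were above 0, with Slfn2 at 0.20 (0.09 to 0.31), and so was Ifi27l2a, at 0.26 (0.20 to 0.31).

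The Ifit type sum in tumour was 311 CPM in CD137 minus and 375 CPM in CD137 plus cells, a log2 ratio of -0.27 (-0.35 to -0.19), and the GTPase type sum was 333 against 385 CPM, at -0.21 (-0.28 to -0.13). Relative to the median of all genes these were -0.14 and -0.08, and with size factors by the median of ratios -0.17 and -0.10. Moved by that median, the interval of the Ifit type ran from -0.22 to -0.06 and that of the GTPase type from -0.15 to 0.00196, which includes 0. The Ifit type thus stood lower in CD137 minus cells by an amount that depended on the scaling, and the GTPase type lay below 0 under each scaling, with an interval that includes 0 after that shift.

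Pdcd1 and Pdcd1-free cells of the tumour differed in these ratios. In Pdcd1 cells 0 of 21 measured members were called, against 3.44% of 5785 genes higher and 2.99% lower. In Pdcd1-free cells 0 of 25 were higher and 8 lower, against 1.65% and 9.09% of 4863 genes, with a median of -0.30 against -0.13 over all genes. Among Pdcd1 cells the Ifit type sum was 403 CPM in CD137 minus and 382 CPM in CD137 plus cells (0.07; -0.03 to 0.18). Among Pdcd1-free cells it was 247 against 366 CPM (-0.57; -0.69 to -0.45). Isg15 too lay above 0 in Pdcd1 cells, at 0.23 (0.06 to 0.39), and below 0 in Pdcd1-free cells, at -0.73 (-0.93 to -0.54). The other 7 members called lower among Pdcd1-free cells were Isg20 (-0.51; -0.80 to -0.25), Usp18 (-0.53; -0.97 to -0.15), Zbp1 (-0.70; -0.98 to -0.44), Stat2 (-0.63; -1.17 to -0.17), Xaf1 (-0.56; -0.95 to -0.22), Ifit3 (-0.56; -1.09 to -0.11) and Dtx3l (-0.51; -0.95 to -0.12). The GTPase type sum was at -0.16 (-0.27 to -0.04) in Pdcd1 cells and -0.24 (-0.35 to -0.13) in Pdcd1-free cells, with intervals that overlap. CD137 minus cells had fewer Pdcd1 cells (40.7% against 55.2%), so the library totals mix these differences with a different make-up.

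In spleen, 3 of 28 measured members were higher in CD137 minus cells and 1 was lower, against 1.41% and 10.3% of 5183 genes. Isg15 was at 0.52 (0.26 to 0.80), from 78.2 against 54.3 CPM, and Isg20 at 0.93 (0.41 to 1.63), from 214 corrected counts against 27. Slfn5 was at 0.80 (0.38 to 1.31), from 33.2 against 18.6 CPM. Irgm1, which guards against intracellular bacteria, was lower at -0.72 (-1.15 to -0.34), from 17.8 against 30.001 CPM. The spleen CD137 plus library has 473 cells, the fewest, and 3 of these 4 genes rest on 74 or fewer counts in it. The calls also changed with a few cells: without the 2% of cells with the highest Ifit type share in each library, 1 of 25 measured members was higher (Slfn5, at 0.69) and 2 were lower (Irgm1, at -0.80, and Usp18, at -0.63). Isg15 was then within the threshold at 0.41, and Isg20, at 0.90, was under the level rule. No share over all genes without those cells is set beside these counts.

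The Ifit type sum in spleen was 259 CPM in CD137 minus and 223 CPM in CD137 plus cells (0.22; 0.09 to 0.35), and the GTPase type sum was 441 against 446 CPM (-0.02; -0.11 to 0.08). Without the 2% of cells with the highest Ifit type share in each library, the Ifit type ratio was 0.06, so a few cells held most of that difference. For the GTPase sum the sign turned with size factors (0.11), and without Ifi47 it was -0.20. Among Pdcd1-free cells of the spleen, Isg15 was at 0.49 (0.22 to 0.77), just under the threshold, and Isg20 at 0.89 (0.36 to 1.58). Isg15 and Isg20 thus lay above 0 in spleen and below 0 in tumour; the difference between tissues was not tested.

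**Figure D4:**
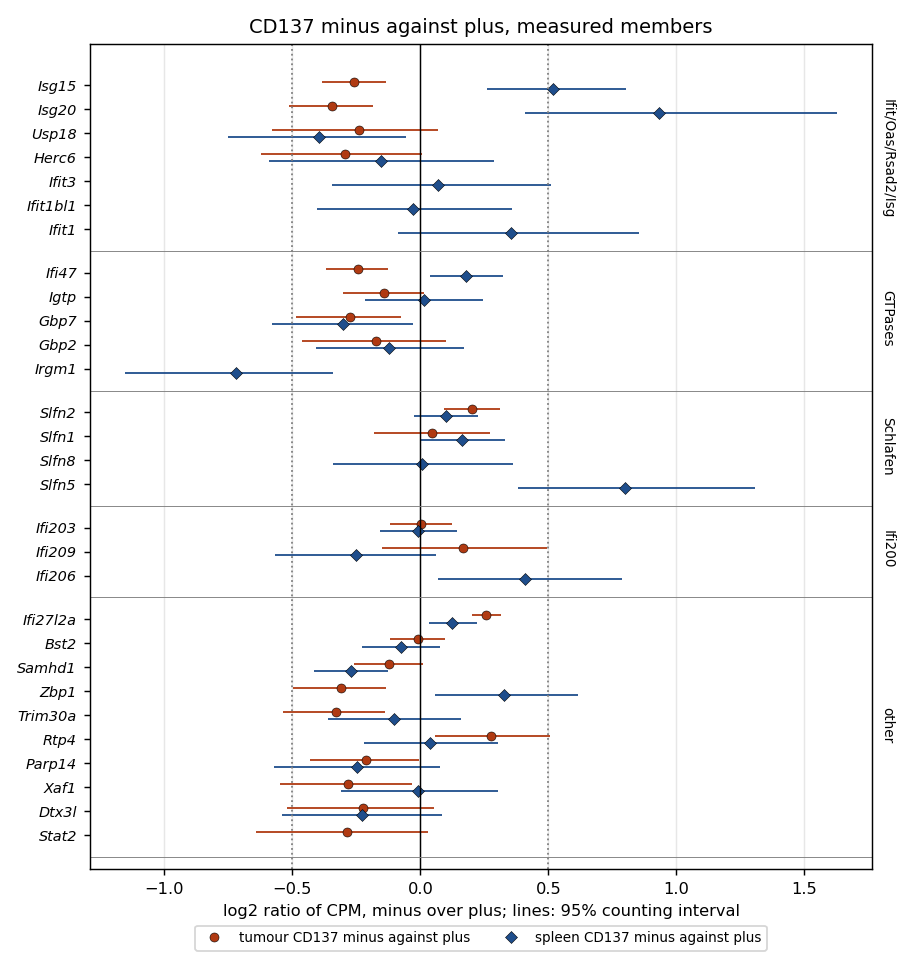
Log2 ratio of CPM in CD137 minus over CD137 plus cells for each measured member, in tumour (circles) and spleen (diamonds). Lines are 95% counting intervals and dotted lines mark 0.5 in either direction. Every tumour value lies between the dotted lines, and in spleen Isg15, Isg20 and Slfn5 lie to the right of them and Irgm1 to the left.

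A cell with values of at least 3 of the 12 Ifit type genes was uncommon in every library: 6.41% (5.48 to 7.45) and 6.55% (4.50 to 9.17) of spleen minus and plus cells, and 5.39% (4.21 to 6.78) and 6.07% (5.21 to 7.03) of tumour minus and plus cells. After thinning to 2900 corrected counts a cell, the shares were 4.22%, 3.17%, 3.01% and 4.19%. The intervals of the 4 libraries overlap both before and after thinning, so no library stood apart in this share at this number of cells. It was also alike among tumour cells with a Pdcd1 value (4.67% and 5.44%) and Pdcd1-free cells (5.88% and 6.86%), within their intervals. For the 7 GTPase genes, values of at least 3 were found in 10.02% and 17.8% of spleen cells and in 9.83% and 8.28% of tumour cells, or 5.88%, 6.98%, 4.20% and 5.24% after thinning. At least 1 Ifit type gene had a value in 44.1% and 51.4% of spleen cells and in 54.4% and 53.0% of tumour cells, or 36.0%, 36.4%, 41.4% and 46.1% after thinning. At least 1 GTPase gene had one in 74.0% and 77.0% of spleen cells and in 61.3% and 61.2% of tumour cells, or 63.9%, 62.8%, 48.4% and 54.7% after thinning. The tissues thus stood in opposite order for the 2 types by this share. For the Ifit type, however, the interval of spleen CD137 plus overlaps that of tumour CD137 minus and, before thinning, that of tumour CD137 plus. Single Ifit type genes also differed, with Isg15 and Isg20 found in a larger share of tumour cells and Ifit1 and Ifit1bl1 in a larger share of spleen cells. The 2 sets also differ in their number of genes and in level.

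The 2% of cells with the highest Ifit type share held a large part of the counts of these genes, partly because the cells were picked by them. For the median Ifit type gene this was 31.5%, 21.1%, 40.6% and 28.7% of the counts of a library. The same cells held 7.91%, 5.41%, 9.09% and 7.64% of the counts of the median GTPase gene, which the pick did not use. For Rsad2, which encodes viperin, an enzyme that makes a chain-terminating nucleotide, they held 80.3% of the counts in tumour CD137 minus, 58.3% in tumour CD137 plus and 60% in spleen CD137 minus, but 0% in spleen CD137 plus, where Rsad2 stood at 3.24 CPM.

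Cells with at least 3 Ifit type genes were then compared with the other cells of their library for the 24 members that did not pick them. By the same size threshold, 22, 22, 23 and 24 of the 24 were higher in them in spleen minus, spleen plus, tumour minus and tumour plus, against 7.3%, 18.2%, 10.7% and 5.98% of the genes at the level rule. That rule was not applied to the 24 members, which include genes below it such as Iigp1 and Gbp3. GTPase genes had a median log2 ratio of 1.30, 1.24, 1.496 and 1.30 in the 4 libraries, while the median over all these genes was 0.08, 0.04, 0.01 and -0.01. Rtp4, a chaperone that carries receptors to the cell surface, was higher by 2.21, 2.19, 2.53 and 2.55, for instance from 36.5 to 215 CPM in tumour CD137 minus. Zbp1 was higher by 1.77 to 2.26, Xaf1 by 1.70 to 2.28 and Ifi27l2a by 1.24 to 1.59. Slfn2 showed little in spleen CD137 minus (0.23) and more in tumour CD137 plus (1.07). The exception below 0 was Parp14 in spleen CD137 plus (-0.86), where 31 cells were compared. These cells had slightly more corrected counts, with medians of 4119.5 against 3951 in spleen CD137 minus and 3950.5 against 3666 in tumour CD137 plus. They also had values of more genes, with medians of 1465.5, 1864, 1660 and 1429.5 against 1321, 1619.5, 1417.5 and 1299.5 in the 4 libraries.

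Cells with a value of Ifit3, 163, 38, 48 and 134 in the 4 libraries, were also set against the other cells. The share of cells with a value was higher beside Ifit3 for 35, 34, 34 and 35 of the other 35 members. The exceptions were Parp14 in spleen CD137 plus (15.8% against 16.8%) and Ifi27l2a in tumour CD137 minus (70.8% against 75.6%), with intervals that overlap. In the same order of libraries, the intervals with and without Ifit3 stood apart for 34, 8, 21 and 29 of the 35 members. No such count was made over all genes, so these counts have no background beside them. Nor was the number of genes with a value compared between cells with and without Ifit3, so its part in these counts was not tested. Of cells with an Ifit3 value, 32.5% and 31.6% in spleen and 22.9% and 19.4% in tumour also had a value of Ifit1, against 5.17%, 4.83%, 2.55% and 2.20% of the other cells. For Ifi47, a GTPase gene that is found in many cells, the shares were 65.6%, 71.1%, 60.4% and, in tumour CD137 plus, 67 of 134 cells, against 51.8%, 52.6%, 36.0% and 35.5%. In spleen CD137 plus, where 38 cells had an Ifit3 value, the Ifi47 interval ran from 54.1% to 84.6%.

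**Figure D5:**
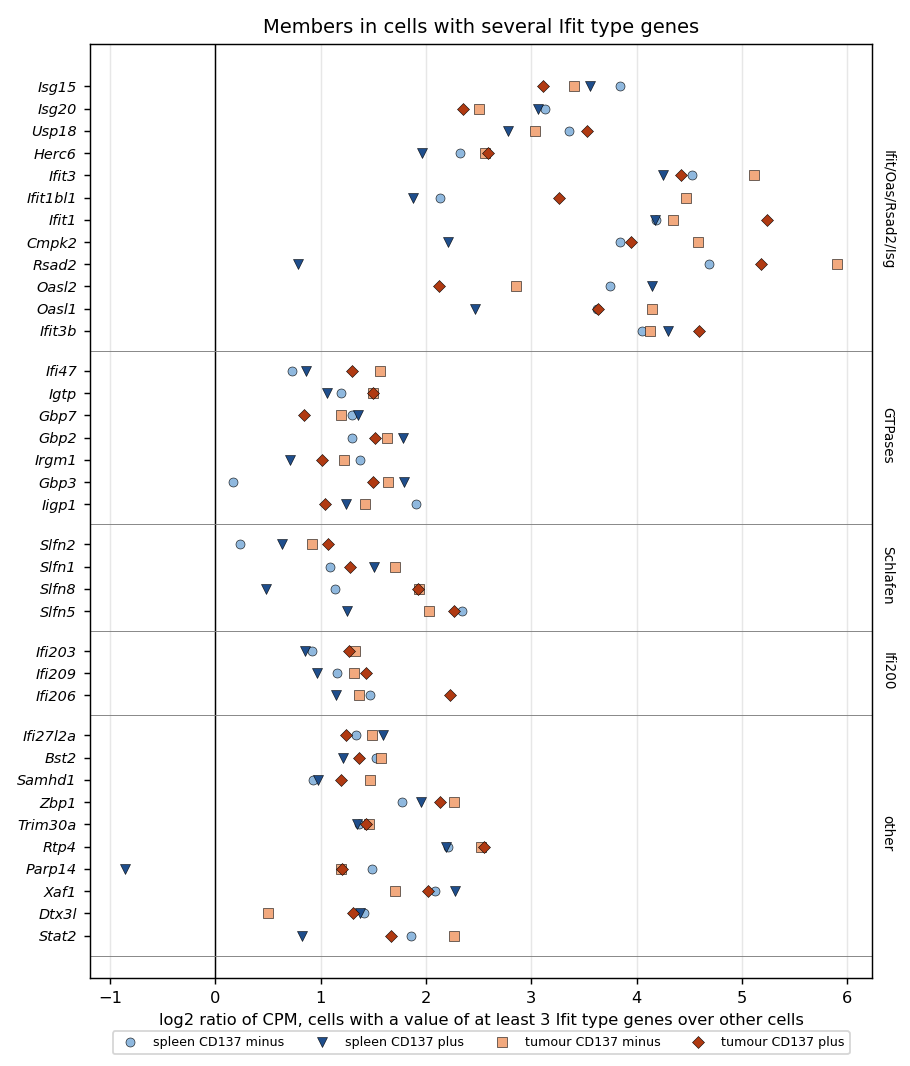
Log2 ratio of CPM in cells with a value of at least 3 Ifit type genes over the other cells of the same library, for each of the 36 members. Each symbol is 1 library; the Ifit type genes at the top picked these cells and are high for that reason. The members below them lie right of 0 in all 4 libraries, except Parp14 in spleen CD137 plus.

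Other genes of the pathway, listed by role, were read in the same way. The list was made with earlier results of these data known. Ifng, which encodes interferon gamma, stood at 7.53, 27.2, 201 and 375 CPM, so it was higher in tumour by 3.74 in CD137 plus and 4.57 in CD137 minus cells, and lower in CD137 minus cells, at -0.89 in tumour and -1.72 in spleen. Ifnb1 and Ifna4 were not among the genes of the table. Of 19 receptor and signalling genes, 4 of 17 measured were higher in tumour and 3 lower in CD137 plus cells, and 6 of 18 higher and 1 lower in CD137 minus cells. Over all measured genes these shares were 24.2% and 17.5% in CD137 plus and 22% and 14.5% in CD137 minus cells, so the list stood near the background in CD137 plus cells and differed from it by a few genes in CD137 minus cells. Ifngr1, a receptor chain for interferon gamma, stood at 165, 206, 368 and 373 CPM, and Socs1, a feedback inhibitor of the Jak kinases, at 56.6, 55.9, 128 and 152 CPM. Both were thus higher in tumour in both comparisons. Irf9, a partner of Stat2 in the type I factor, was nearly level between tissues. It stood at 51.8, 53.9, 49.4 and 54.1 CPM (0.01 in CD137 plus and -0.07 in CD137 minus cells).

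Of 46 further interferon-induced genes, 3 of 30 measured were higher in tumour and 7 lower in CD137 plus cells, and 3 of 29 higher and 8 lower in CD137 minus cells, against the same shares over all genes. The higher ones in both were Ly6a, a surface antigen of activated T cells, and Cd274, which encodes PD-L1. Sp100, a nuclear body protein gene, was lower at -0.85 and -0.60. Between CD137 minus and plus cells, 0 were higher and 2 of 29 lower in tumour (Ifitm2 and Tap1), and 0 higher and 3 of 29 lower in spleen (Oas1a, Tgtp2 and Nlrc5). These counts are close to the shares over all measured genes, which were 1.7% higher and 5.44% lower in tumour and 1.41% higher and 10.3% lower in spleen. Tap1, which moves peptides to major histocompatibility complex class I, stood at 94.2 CPM in tumour CD137 minus and 149 CPM in tumour CD137 plus cells.

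Summed markers of other cells differed between tissues. The 5 plasmacytoid dendritic cell markers summed to 87.6 and 64.5 CPM in spleen and 162 and 229.6 CPM in tumour, with Irf8 making up 83.8 and 139.7 CPM of the tumour sums. Siglech stood at 6.10, 0, 19.5 and 19.3 CPM, while Ccr9 went the other way, at 48.6, 30.8, 15.9 and 17.3 CPM. The 4 macrophage and monocyte markers in the table, of 6 listed, summed to 117, 100.1, 166 and 262 CPM, nearly all of it Cst3, while Lyz2, C1qa and C1qb were at 0 in spleen and at most 5.63 CPM in tumour. The 5 melanoma markers in the table, of 6 listed, summed to 1.02, 0, 34.3 and 33.4 CPM. The 3 B cell markers in the table, of 4 listed, went the other way, with sums of 42.4, 30.001, 9.44 and 8.08 CPM. The 2 natural killer cell markers in the table, of 3 listed, summed to 17.2, 40.1, 56.8 and 98.8 CPM. Most of this was Klre1, at 13.0, 30.4, 54.7 and 96.3 CPM, while Klrb1c stood at 4.17, 9.73, 2.15 and 2.53 CPM. Cells with a value of Siglech, a defining plasmacytoid marker, numbered 9, 0, 13 and 45 and held 6.66%, 0%, 17.98% and 18.01% of the Bst2 counts. They held at most 1.55% of the Isg15 counts and 1.28% of the Ifi27l2a counts. Among cells that pass the CD8 rule given at the start, Bst2 in tumour over spleen was -0.21 in CD137 plus cells in place of 0.06, and -0.04 in CD137 minus cells in place of 0.13. Isg15 and Isg20 moved by less than their intervals there. In cells with at least 3 Ifit type genes the plasmacytoid markers summed to 63.3, 65.5, 58.9 and 228 CPM. Whether free RNA of other cells had a part in the other levels was not tested.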

How the data were processed

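Single CD8 T cells were measured by 5' droplet RNA sequencing in 4 libraries of 6965 cells in all. The deposited table gives natural log values for 12763 genes, made by the authors. Cell Ranger 3.0.2, Seurat 3.0 and the mm10 build are named in the submitters' processing notes, with parameters not given in the sources used here. Raised back from the natural log and less 1, every deposited value was whole (relative tolerance 1e-09), and per-cell totals of those numbers span only 2949 to 5872, so they are counts that the authors corrected for depth and not raw counts. They were put back on the linear scale and summed per library (totals of 2466601 to 10273681) to counts per 1000000 (CPM). No count model, test or p-value was used, since each group is 1 library.

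Members and gene lists were chosen with earlier results of these data known. Every member at 20 CPM and 5% of cells in 1 library is given with its 4 levels, and the rest by range. Other normalizations, filters, pseudocounts and cell sets were tried, and leaving out shared barcodes, leaving Isg15 and Isg20 out of the Ifit type sum, and taking all cells without a Pdcd1 value as 1 set, were added after seeing the data. A planned split of those cells by another gene is not reported here. No doublet caller was run, and the table holds no raw counts to run one on. The calculation was tested on simulated data. Python 3.11.15, numpy 2.4.6, pandas 2.3.3, scipy 1.17.1, matplotlib 3.10.9 and blastn 2.17.0 (near copies at 90% identity over 200 bases) were used.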

Additional observations from a re-analysis of the deposited data

Results flagged for a closer look

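Isg15 and Isg20 had opposite directions in the 2 tissues under the same contrast. For Isg15, the log2 ratio of CD137 minus over CD137 plus was -0.26 in tumour and 0.52 in spleen. For Isg20 it was -0.34 in tumour and 0.93 in spleen, where the CD137 plus library held 27 corrected counts. Both tumour ratios were too small to be called, and relative to the median of all genes they were -0.13 for Isg15 and -0.21 for Isg20. Among tumour Pdcd1 cells, Isg15 had the other direction, at 186 CPM in CD137 minus and 159 CPM in CD137 plus cells. In spleen, without the 2% of cells highest for the Ifit type, Isg15 was at 0.41 and Isg20, at 0.90, was under the level rule. With 1 library per group the difference between tissues was not tested.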

How the results depend on the processing

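No paired analysis was possible because each group is 1 library, no mouse is named per cell and no result comes from a test. No called member changed sign under the alternatives run. With no filter on the level, the number of called members was 1 (lower) for CD137 status in tumour and 7 (5 higher, 2 lower) in spleen. At 50 CPM or more it was 1 in spleen, and 7 for tumour against spleen in both CD137 plus (2 higher, 5 lower) and CD137 minus cells (3 higher, 4 lower). Fewer genes are then measured. No share over all genes under these filters is set beside these counts, so they cannot be read against a background. For CD137 status in tumour, the Ifit type sum was -0.17 with size factors by the median of ratios, -0.14 relative to the median of all genes and -0.40 without the 2% of cells highest for the type, and the GTPase type sum was -0.10 with size factors and -0.076 relative to the median. In spleen, the Ifit type sum was 0.0595 without those 2% of cells, and the GTPase type sum 0.11 with size factors and -0.20 without Ifi47. For tumour against spleen, the Ifit type sum without Isg15 was 0.37 in CD137 plus and -0.0094 in CD137 minus cells, and the GTPase type sum without Ifi47 was -0.13 in CD137 minus cells. Without both Isg15 and Isg20, left out after seeing the data, the Ifit type sum reversed to -0.33 in CD137 plus cells, was -0.57 in CD137 minus cells, and was 0.017 for CD137 status in spleen. Thinned shares of cells with at least 3 Ifit type genes were 4.22%, 3.17%, 3.01% and 4.19%. For each of these moves the cause was not tested, beyond what the alternative itself leaves out. Of the other values, 85 for whole comparisons and 917 for single members stayed within their intervals or within 1.5 times, and 19 for single members moved, with the same sign wherever the member was called. Depth limits the 7 members that never reached the level rule, and the spleen CD137 plus library, with 473 cells, limits every comparison it enters.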
